A study of Drosophila melanogaster with 9 samples.

Results

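The comparison described here sets S2 cells treated with double-stranded RNA (dsRNA) that targets the pausing factor NELF beside S2 cells given nothing, and it uses 6 of the 9 arrays of the study. The members were chosen by sample title: 3 arrays of NELF-depleted cells and 3 of untreated cells. S2 is a Drosophila melanogaster line of macrophage-like cells that was derived from embryos and takes up dsRNA from its medium. The NELF dsRNA group received dsRNA against 2 subunits of the complex, NELF-B and NELF-E, for 72 h. A further group, the LacZ dsRNA cells, received dsRNA against the bacterial beta-galactosidase gene for 72 h as a mock treatment, and its 3 arrays are given here only to show what dsRNA without a target in the cells already does. The untreated group received no dsRNA. All groups were grown in the same serum-containing medium, each array carried RNA of 1 sample, and NELF protein was not measured here. Whether the samples of a group were grown as separate cultures is not stated in the labels, so the p-values refer to the spread among the samples at hand, and that spread may be technical only.

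NELF, the negative elongation factor, holds RNA polymerase II shortly after it has started a transcript, and the kinase P-TEFb releases the polymerase into productive elongation. Paused polymerase is common at signal-responsive genes, among them heat shock and immune genes, and in flies it also keeps promoters of some genes free of nucleosomes. A difference between NELF dsRNA and untreated cells therefore holds the loss of NELF and the exposure to dsRNA together. The LacZ dsRNA arrays carry exposure to dsRNA without the loss of NELF, but to dsRNA of another sequence. An effect of the NELF dsRNA sequences other than the loss of NELF would not be seen in them.

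Transcript levels are given as log2 intensity, the deposited value of a probe set on an array, where 1 unit is a 2-fold difference. A probe set counts as detected above 3.77, the 95th percentile of the control probe sets, and 8010 to 8059 probe sets per array lay above that limit. The arrays of the NELF dsRNA group had 13854 to 14194 measured probe sets and those of the untreated group 14144 to 14178. NELF dsRNA array 3 and LacZ dsRNA array 1 had the fewest, 13854 and 13935. A change is the NELF dsRNA mean minus the untreated mean, and a gene passed where its Benjamini-Hochberg adjusted p from limma was under 0.05. Where 1 group mean lay below the limit, the fold is given as at least N, with that mean set at the limit. The LacZ dsRNA change is taken against the same untreated arrays, and the difference between NELF dsRNA and LacZ dsRNA uses the same NELF dsRNA arrays, so these values are set side by side and are not independent.

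The cells carried transcripts of the hemocyte class on all arrays. Of 11 hemocyte markers 8 were detected in at least 1 of the 2 groups. Among them the scavenger receptor gene crq averaged 9.03 after NELF dsRNA and 9.01 in untreated cells, and Pvr, the receptor for PDGF- and VEGF-like ligands, 10.3 and 10.1. The plasmatocyte markers NimC1, He and Sr-CI had group means below the limit in both. Of the markers of other tissues, elav, a neuronal RNA-binding protein, aub and tud of the germline and Mf, a muscle filament protein, were above the limit on every array, whereas the fat body markers Fbp1 and Lsp2 and the gut marker betaTry had means below it after NELF dsRNA and in untreated cells. The reference genes did not pass: RpL32 had a change of -0.07 (SE 0.05, adjusted p = 0.57) and Gapdh1 one of 0.02 (SE 0.06, adjusted p = 0.91).

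Both targeted genes fell. Nelf-E, the RNA-binding subunit, had 2.52, 3.65 and 3.81 on the NELF dsRNA arrays, 7.98, 7.81 and 7.48 on the LacZ dsRNA arrays and 7.83, 7.93 and 7.85 on the untreated arrays. It was at least 17.1-fold lower after NELF dsRNA than in untreated cells (fitted change -4.54, SE 0.27, adjusted p = 5.2e-08). NELF-B had 4.76, 4.83 and 4.54 after NELF dsRNA, 7.41, 7.47 and 7.63 after LacZ dsRNA and 7.41, 7.17 and 7.16 in untreated cells, a 5.79-fold fall (SE 0.15 on the log2 scale, adjusted p = 4.35e-08). For both genes the NELF dsRNA arrays lay far from all other arrays, and the LacZ dsRNA and untreated arrays lay near each other. TH1, the fly NELF-D subunit, which was not targeted, had 8.27, 8.11 and 7.92 after NELF dsRNA against 8.07, 7.995 and 8.04 in untreated cells and did not pass (change 0.06, adjusted p = 0.82). Nelf-A was not analysed here.

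Of 9102 genes tested, 251 were higher after NELF dsRNA than in untreated cells (2.76%) and 389 were lower (4.27%). Larger changes were more often falls: at 1.5-fold or more 93 genes were higher and 237 lower, and at 2-fold or more 38 and 138. The median change over all tested genes was -0.006. How often a gene passed followed its level, as the plot of change against level shows. Among 2982 genes with a mean at or below the detection limit, which the shares over all genes include, 6 were higher and 6 lower. Among 1370 genes with a mean between 9 and 11 there were 77 and 92. The median SE was 0.94 in the dim class and 0.079 in the bright one. At the probe set level 341 of 12973 were higher and 458 lower, and 120 of these had no single gene name and are not described further. Without untreated array 1, 223 probe sets were higher. A probe set of CG13917 was empty on all 3 NELF dsRNA arrays and above the limit on all 3 untreated arrays (5.09, 4.41 and 4.67), which could not be tested, and it averaged 3.50 after LacZ dsRNA. Another probe set of that gene had a change of 1.09 that did not pass.

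**Figure D1:**
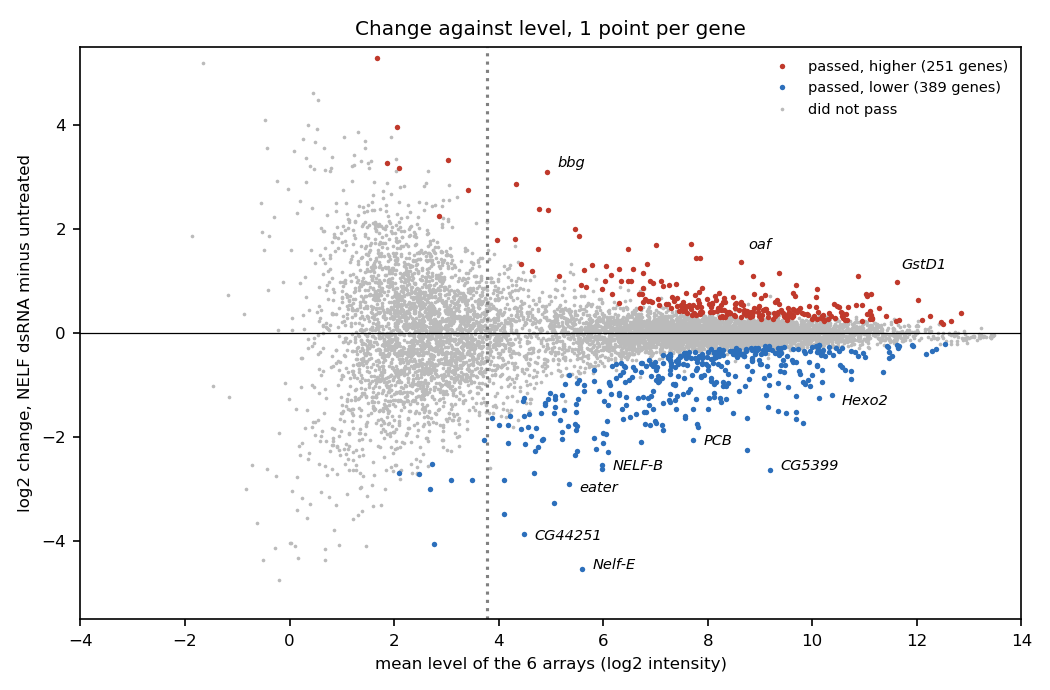
Change in log2 intensity, NELF dsRNA minus untreated, against the mean level of the 6 arrays, with 1 point per gene (2 genes lie outside the axes). Red points are the 251 genes that passed and were higher, blue points the 389 that passed and were lower, and the dotted line marks the detection limit of 3.77. The spread of the grey points narrows from left to right, and the lowest blue points reach farther from 0 than the red points among the brighter genes.

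Few genes passed with plain dsRNA. In LacZ dsRNA against untreated cells 7 of 8707 genes passed (0.0804%), 6 higher and 1 lower, although 992 had an unadjusted p under 0.05. In NELF dsRNA against LacZ dsRNA 474 of 8707 genes passed (5.44%), 174 higher and 300 lower. Of the 7 genes that LacZ dsRNA changed, 4 were also higher after NELF dsRNA and did not differ past the threshold between the 2 dsRNA groups. CG32576 had 7.22, 7.42 and 7.21 after NELF dsRNA, 7.20, 7.20 and 7.10 after LacZ dsRNA and 5.68, 5.74 and 5.58 in untreated cells. All its dsRNA arrays lay above the untreated ones, with the NELF dsRNA arrays just above the LacZ dsRNA arrays, which made it 3.07-fold higher after NELF dsRNA (change 1.62, SE 0.13, adjusted p = 8.97e-07) and 2.83-fold higher after LacZ dsRNA (adjusted p = 8.98e-05). SpdS, the spermidine synthase gene, had 7.41, 7.27 and 7.36 after NELF dsRNA, 7.34, 6.96 and 7.01 after LacZ dsRNA and 6.46, 6.17 and 5.97 in untreated cells. It changed by 1.15 in NELF dsRNA and by 0.91 in LacZ dsRNA cells. The gene stc, a zinc finger protein of the NF-X1 family, changed by 0.64 and 0.70, and the kinase gene Akt by 0.38 and 0.57. The NELF dsRNA call of Akt was lost without untreated array 1 or 3 (adjusted p = 0.0623 and 0.0508).

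The other 3 genes moved by LacZ dsRNA did not pass in NELF dsRNA against untreated cells. The ceramide synthase gene schlank had 9.76, 9.76 and 9.55 after NELF dsRNA, 10.04, 10.15 and 10.16 after LacZ dsRNA and 9.59, 9.56 and 9.59 in untreated cells. Here the LacZ dsRNA arrays stood apart (LacZ dsRNA change 0.53, adjusted p = 0.009), and the NELF dsRNA change was 0.11 (adjusted p = 0.49). Sgt, a co-chaperone with tetratricopeptide repeats, was lower after LacZ dsRNA alone, with 10.67, 10.74 and 10.77 after NELF dsRNA, 10.25, 10.41 and 10.33 after LacZ dsRNA and 10.69, 10.79 and 10.72 in untreated cells. CG5913 had a LacZ dsRNA change of 0.49 and a NELF dsRNA change of 0.22. The calls in LacZ dsRNA against untreated cells rest on few arrays: without LacZ dsRNA array 1 the probe sets that passed were 14 higher and 4 lower. Without LacZ dsRNA array 3 or untreated array 3 there were 2 higher, and without array 2 of either group 3 higher. The 1 lower probe set was lost without LacZ dsRNA array 2 or 3 or untreated array 1 or 2.

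**Figure D2:**
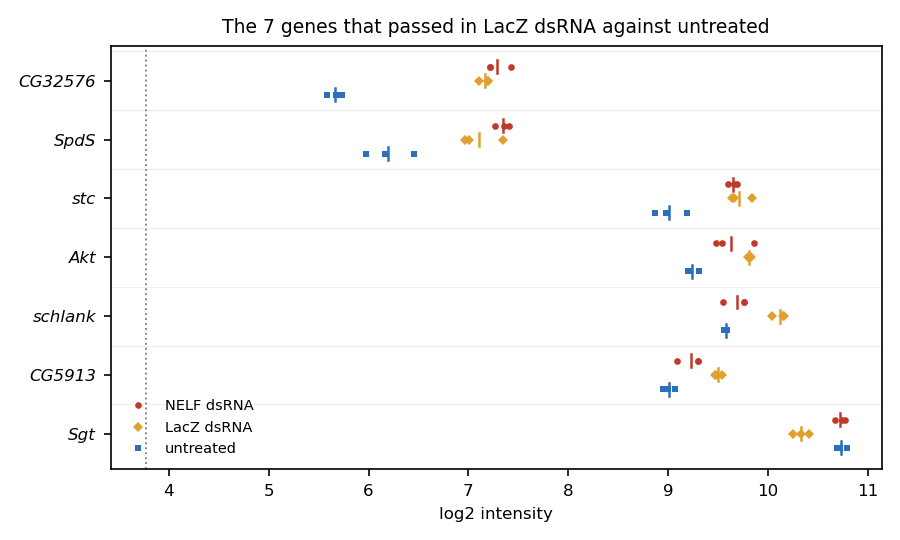
Log2 intensity on each array of the 7 genes that passed in LacZ dsRNA against untreated cells, with a tick at each group mean. For CG32576, SpdS, stc and Akt the NELF dsRNA and LacZ dsRNA arrays lie together above the untreated arrays, and for schlank and Sgt the LacZ dsRNA arrays stand apart from both other groups.

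Some further genes that rose after NELF dsRNA had a LacZ dsRNA value of like size that did not pass by itself. The gene ppk29, of the pickpocket family of sodium channels, had 5.92, 5.23 and 5.52 after NELF dsRNA, 6.21, 5.18 and 5.498 after LacZ dsRNA and 3.87, 3.69 and 4.27 in untreated cells. Its change was 1.61 in NELF dsRNA (adjusted p = 0.0045) and 1.69 in LacZ dsRNA cells (adjusted p = 0.065), and the 2 dsRNA groups differed by -0.08. The securin gene pim, which restrains separase until anaphase, had 9.27, 9.27 and 9.38 after NELF dsRNA, 9.39, 9.26 and 9.08 after LacZ dsRNA and 8.87, 8.90 and 8.83 in untreated cells (changes of 0.44 and 0.38). For both genes the arrays of the 2 dsRNA groups overlapped, and for both all 6 lay above the untreated arrays. A LacZ dsRNA p above the threshold does not show that plain dsRNA left a gene alone. For many of the genes below the LacZ dsRNA value is therefore given beside that of NELF dsRNA. A gene given without it was not shown to be free of a plain dsRNA change.

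The 15 largest rises among the brighter genes whose NELF dsRNA and untreated arrays did not overlap ran from 1.31 to 3.10. The largest was bbg, which encodes a PDZ-domain protein of epithelial junctions, with 6.57, 6.62 and 6.21 after NELF dsRNA, 3.08, 3.87 and 3.92 after LacZ dsRNA and 3.25, 2.84 and 4.01 in untreated cells. It was at least 6.50-fold higher than in untreated cells (adjusted p = 7.51e-05), while its other, dimmer probe set had a change of -0.35 and did not pass, and with the mean over both probe sets the call was lost (adjusted p = 0.076). Obp44a, of the odorant-binding protein family, was at least 4.57-fold higher (LacZ dsRNA change 0.92) and net, a basic helix-loop-helix factor known for suppressing wing veins, at least 5.12-fold higher (LacZ dsRNA change 0.83). In both genes the LacZ dsRNA arrays lay between the other groups without overlap. Obp44a had 5.85, 6.18 and 5.85 after NELF dsRNA, 4.42, 4.52 and 4.54 after LacZ dsRNA and 3.91, 3.48 and 3.32 in untreated cells. The values of net were 6.17, 6.08 and 6.13 after NELF dsRNA, 4.45, 4.71 and 4.64 after LacZ dsRNA and 4.06, 3.95 and 3.29 in untreated cells. Both passed against LacZ dsRNA as well (adjusted p = 0.00619 and 0.00385).

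NELF dsRNA cells had at least 3.98-fold more Prx6c, a peroxiredoxin transcript, than untreated cells, and its LacZ dsRNA change of 1.25 did not pass (adjusted p = 0.40). It had 5.58, 6.25 and 5.46 after NELF dsRNA, 3.91, 3.79 and 4.74 after LacZ dsRNA and 2.66, 1.98 and 4.06 in untreated cells, so that the untreated arrays were widely spread. Against LacZ dsRNA it did not pass (adjusted p = 0.092). CG34328 changed by 1.87 with a LacZ dsRNA change of 0.87. Apart from CG32576 and ppk29, described above, the other rises had LacZ dsRNA changes between 0.00 and 0.40. The gene oaf, which has a secreted product, had 9.43, 9.33 and 9.18 after NELF dsRNA, 7.93, 7.93 and 7.999 after LacZ dsRNA and 8.04, 7.95 and 7.87 in untreated cells. The LacZ dsRNA and untreated arrays coincided and the NELF dsRNA arrays stood apart (change 1.36, SE 0.09, adjusted p = 1.08e-07), and its 2 other probe sets changed by 1.41 and 1.76. CG2247 had 8.60, 8.63 and 8.41 after NELF dsRNA, 6.83, 6.78 and 7.22 after LacZ dsRNA and 6.90, 6.77 and 6.80 in untreated cells, and CG12868 rose by 1.44 and CG9008 by 2.00.

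The remaining rises of this set were enzymes, channels and a junction protein. Ip6k, an inositol hexakisphosphate kinase, rose 2.73-fold, with 8.32, 8.65 and 8.51 after NELF dsRNA, 7.32, 7.59 and 7.43 after LacZ dsRNA and 7.12, 7.24 and 6.78 in untreated cells. Gli, which encodes the tricellular junction protein Gliotactin, rose 2.51-fold, with 7.52, 7.51 and 7.49 after NELF dsRNA against 5.83, 6.35 and 6.35 in untreated cells. Trpm, a cation channel of the melastatin family, rose 2.49-fold on its brightest probe set, and of its 3 other probe sets 1 passed (change 2.35) and 2 did not (1.09 and 0.96). In these 3 genes all NELF dsRNA arrays lay above all arrays of both other groups. GstD5 also belongs to this set and is described with its family.

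**Figure D3:**
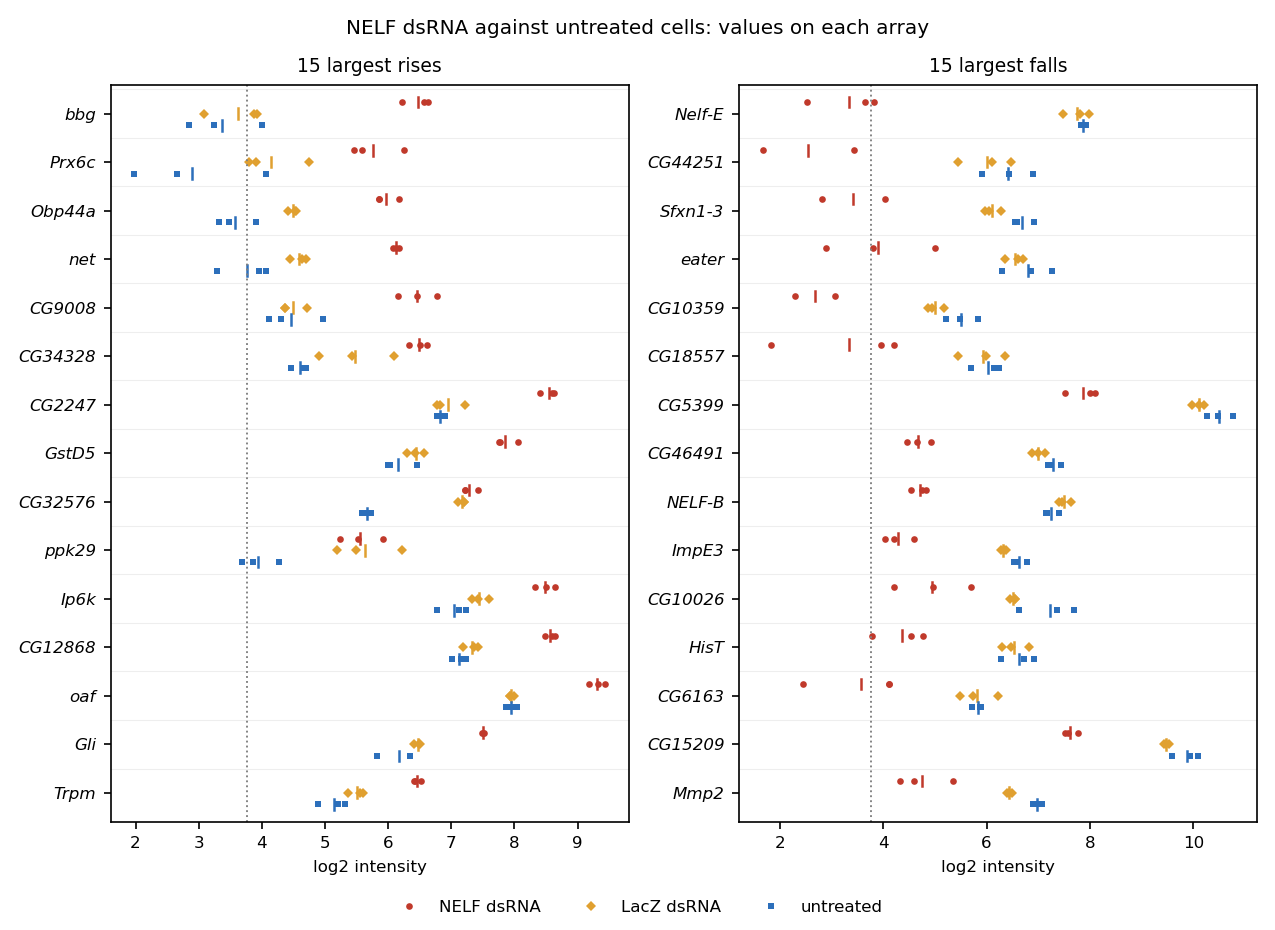
Log2 intensity on each of the 9 arrays of the 15 largest rises (left) and the 15 largest falls (right) in NELF dsRNA against untreated cells among brighter genes without overlap of those arrays, with a tick at each group mean and a dotted line at the detection limit of 3.77. In the left panel CG32576 and ppk29 have LacZ dsRNA arrays near the NELF dsRNA ones, and in the right panel all LacZ dsRNA arrays lie near the untreated ones, with LacZ dsRNA changes between -0.72 and 0.26.

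The 15 largest falls among the brighter genes whose NELF dsRNA and untreated arrays did not overlap, Nelf-E and NELF-B among them, ran from -2.23 to -4.54, and in all 15 the NELF dsRNA arrays lay below all arrays of both other groups. The phagocytosis receptor gene eater had 5.01, 3.80 and 2.89 after NELF dsRNA, 6.60, 6.36 and 6.71 after LacZ dsRNA and 7.27, 6.29 and 6.86 in untreated cells, a 7.51-fold fall (SE 0.40 on the log2 scale, adjusted p = 0.000242). Its NELF dsRNA arrays were far apart from each other as well as from the rest. CG5399 had 8.001, 7.52 and 8.10 after NELF dsRNA, 10.21, 9.98 and 10.11 after LacZ dsRNA and 10.78, 10.27 and 10.48 in untreated cells, a 6.21-fold fall (adjusted p = 1.93e-08). CG15209 fell 4.77-fold from a similar level, with 7.51, 7.58 and 7.76 after NELF dsRNA against 10.10, 9.58 and 9.93 in untreated cells (adjusted p = 1.54e-08). These were the brightest genes of the set, and their falls were measured above the limit on every array.

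Sfxn1-3, a sideroflexin whose human relatives carry serine into mitochondria, was empty on NELF dsRNA array 2 and had 4.03 and 2.81 on the other 2, against 6.92, 6.58 and 6.56 in untreated cells. It was at least 7.56-fold lower (LacZ dsRNA change -0.59, adjusted p = 0.49). CG44251 was likewise empty on NELF dsRNA array 2 and CG10359 on array 3, so that both were fitted from 2 NELF dsRNA values, and they were at least 6.28-fold and at least 3.35-fold lower. The other probe set of CG44251 had a change of -0.996 and did not pass, and with the mean over both the change was -2.23. CG18557 and CG6163 had NELF dsRNA means below the limit and were at least 4.77-fold and at least 4.17-fold lower. CG46491 fell by 2.61 and CG10026 by 2.28 on the log2 scale. HisT had 4.76, 4.54 and 3.78 after NELF dsRNA, 6.81, 6.30 and 6.47 after LacZ dsRNA and 6.72, 6.28 and 6.91 in untreated cells (change -2.27, adjusted p = 4.23e-05). ImpE3, a gene known as ecdysone-inducible, and Mmp2, a matrix metalloproteinase, fell by 2.35 and 2.23 on the log2 scale and are taken up with their groups.

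Several genes of humoral immunity fell. Falls were seen in 4 of the 5 antimicrobial peptide genes that could be tested and rises in none, against 4.27% of all genes lower, with a median change of -0.71, a LacZ dsRNA median of -0.24 and a median over all genes of -0.006. The cecropin gene CecB had 6.11, 5.89 and 6.08 after NELF dsRNA, 7.33, 7.02 and 7.08 after LacZ dsRNA and 7.66, 7.36 and 7.63 in untreated cells (change -1.53, SE 0.14, adjusted p = 3.36e-06). The diptericin gene DptB had 6.00, 6.49 and 6.197 after NELF dsRNA, 7.90, 7.25 and 7.16 after LacZ dsRNA and 7.68, 7.72 and 7.65 in untreated cells (change -1.45, adjusted p = 7.81e-05). For both genes the NELF dsRNA arrays lay below all others. The LacZ dsRNA arrays lay below the untreated range for CecB and on both sides of it for DptB. The attacin gene AttD fell by 0.71 and the metchnikowin gene Mtk by 0.40 on the log2 scale, with LacZ dsRNA values of -0.34 and -0.22. Against LacZ dsRNA neither AttD (adjusted p = 0.17) nor Mtk (adjusted p = 0.37) passed. The call of Mtk was lost without NELF dsRNA array 2 (adjusted p = 0.0654), untreated array 1 (0.0517) or untreated array 3 (0.0623). Without a trend of variance with intensity in limma (the variance trend) 2 of the 5 were lower, and AttD was lost as well (adjusted p = 0.0905). The drosomycin gene Drs had a change of -0.47 that did not pass (adjusted p = 0.20). Only 6 of 14 listed peptide genes were matched. CecA1, CecA2, CecC, DptA, AttA, AttB, AttC and Dro were not, and were not tested here.

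The pathways that switch these peptides on were examined next. Of 17 Imd pathway genes 2 fell and none rose, against 4.27% of all genes lower, and 1 was lower without the variance trend, with low values raised to a floor or with the replicate number as a block. The Imd inhibitor gene pirk had 7.35, 7.47 and 7.68 after NELF dsRNA, 8.72, 8.46 and 8.30 after LacZ dsRNA and 8.79, 8.61 and 8.80 in untreated cells, a 2.34-fold fall (adjusted p = 5.57e-06). PGRP-LA, of the peptidoglycan recognition family, fell by 0.46 on the log2 scale, a call lost in 6 of the 9 fits that left out 1 array (adjusted p up to 0.14). Of 15 Toll pathway genes 4 fell and none rose, and 3 were lower without the variance trend. GNBP3, which recognizes fungal glucans, had 6.72, 6.64 and 6.86 after NELF dsRNA, 7.52, 7.70 and 7.78 after LacZ dsRNA and 8.08, 8.01 and 7.98 in untreated cells (change -1.28, LacZ dsRNA change -0.36, adjusted p = 1.75e-06). The serine protease gene grass, which acts upstream of the receptor, fell by 0.96 (LacZ dsRNA change -0.29) and the receptor gene Tl by 0.85 (LacZ dsRNA change 0.11) on the log2 scale. In these 3 genes the NELF dsRNA arrays lay below all others. The second probe set of Tl, with both means below the limit, had a change of 1.37 that did not pass, and the mean over both was 0.26. The NF-kB gene dl fell by 0.34 on the log2 scale, and its second probe set had a change of -0.09. That call was lost without NELF dsRNA array 2, untreated array 1 or untreated array 2 (adjusted p up to 0.0668).

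**Figure D4:**
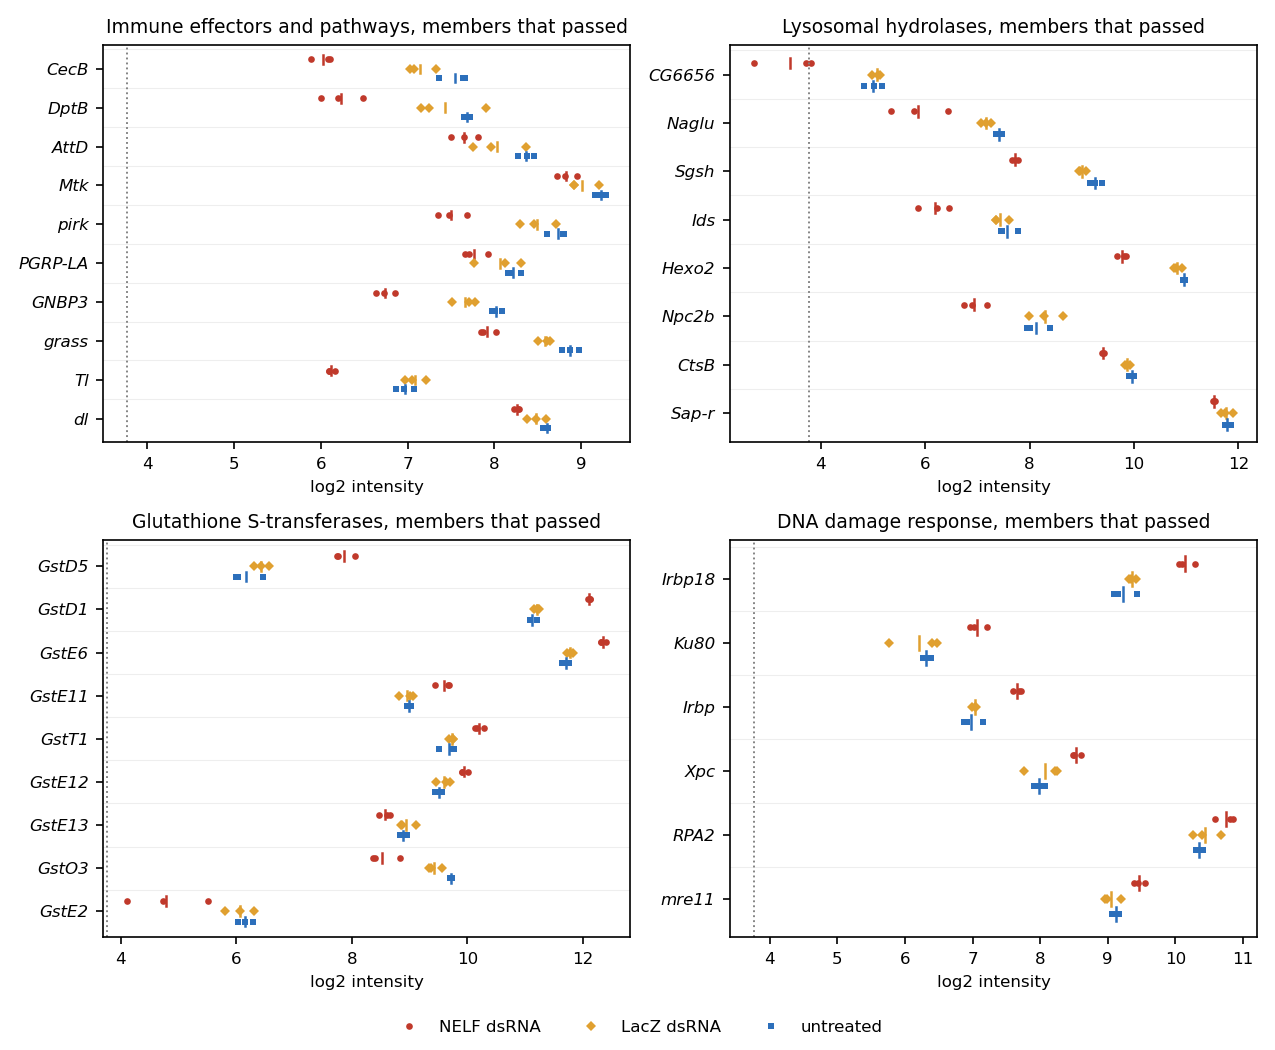
Log2 intensity on each array of the members that passed in NELF dsRNA against untreated cells in 4 gene groups: immune effectors and pathways, lysosomal hydrolases, glutathione S-transferases and the DNA damage response, with a tick at each group mean and a dotted line at the detection limit. In the upper panels the NELF dsRNA arrays lie to the left of the untreated arrays for every gene drawn, and in the lower right panel they lie to the right.

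Receptors of cellular immunity and adhesion fell in part. Of 13 tested phagocytosis and recognition receptor genes 3 fell and none rose, and 2 were lower without the variance trend. Beside eater these were drpr, which encodes the engulfment receptor Draper, with 7.46, 7.03 and 7.71 after NELF dsRNA, 8.34, 8.54 and 8.76 after LacZ dsRNA and 8.79, 8.26 and 8.89 in untreated cells (change -1.25, adjusted p = 0.000339), and NimC4, a receptor for apoptotic cells (change -1.17, adjusted p = 0.0056). Of 19 integrin and adhesion genes 3 fell and none rose, against 4.27% of all genes lower: kon, a transmembrane proteoglycan of muscle attachment, by 2.06, the beta subunit gene Itgbn by 1.53 and the alpha subunit gene ItgaPS4 by 1.55 on the log2 scale. The values of kon were 4.42, 3.50 and 3.47 after NELF dsRNA, 6.37, 5.89 and 5.81 after LacZ dsRNA and 5.93, 5.82 and 5.82 in untreated cells. All of these receptors had LacZ dsRNA changes between -0.25 and 0.17. Without the variance trend 1 of these 3 was lower, with Itgbn and ItgaPS4 lost (adjusted p = 0.0587 and 0.0956). The call of ItgaPS4 was also lost without untreated array 1 (adjusted p = 0.0892). In RNA from whole cultures, fewer cells of a kind and less RNA per cell cannot be told apart. Of 11 hemocyte lineage genes 2 rose and none fell, against 2.76% of all genes higher. The GATA factor gene srp rose by 0.34 (LacZ dsRNA change 0.27) and Nplp2, which encodes a secreted peptide, by 0.23. These 2 calls were lost without the variance trend, and in 5 and in 4 of the 9 fits that left out 1 array (adjusted p up to 0.158 and 0.14). The summed linear intensity of the 11 hemocyte markers, eater and srp among them, ran from 3327 to 3559 on the NELF dsRNA arrays, from 2965 to 3277 on the LacZ dsRNA arrays and from 2944 to 3015 on the untreated arrays, and its part in these results was not tested.

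Matrix and actin genes passed in both directions. Of 19 matrix genes 3 rose and 3 fell, against 2.76% and 4.27% of all genes. Without the variance trend 0 were higher and 1 lower. Mmp2 had 5.35, 4.32 and 4.59 after NELF dsRNA, 6.49, 6.39 and 6.44 after LacZ dsRNA and 7.08, 6.98 and 6.90 in untreated cells (change -2.23, LacZ dsRNA change -0.55), with its second, undetected probe set at -0.16. Timp, which encodes the inhibitor of such metalloproteinases, had 4.39, 5.53 and 4.16 after NELF dsRNA and 2 untreated values of 2.16 and 0.58. It was at least 1.90-fold higher, a call lost without NELF dsRNA array 1 or 2 (adjusted p = 0.0588 and 0.118), and its other probe set, with a change of 1.76, did not pass. The basement membrane genes Glt and SPARC fell by 0.82 and 0.30 on the log2 scale, with LacZ dsRNA changes of -0.42 and -0.10. The laminin gene LanA rose by 0.25, and the laminin gene wb was at least 1.17-fold higher with a LacZ dsRNA change of 2.15 that did not pass (adjusted p = 0.19). Calls of LanA and wb were lost in 3 and in 5 of the 9 fits that left out 1 array (adjusted p up to 0.0812 and 0.113).

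Of 25 actin cytoskeleton genes 3 rose and 2 fell, against 2.76% and 4.27% of all genes. Without the variance trend 0 were higher and 1 lower. Gel, which encodes the actin-severing protein gelsolin, had 9.01, 9.09 and 8.999 after NELF dsRNA, 9.77, 9.87 and 10.10 after LacZ dsRNA and 10.17, 10.05 and 9.96 in untreated cells (change -1.03, adjusted p = 1.7e-06). Act79B, a muscle actin, had 7.61, 7.76 and 7.43 after NELF dsRNA, 5.55, 5.85 and 5.81 after LacZ dsRNA and 7.02, 6.90 and 5.88 in untreated cells. Its LacZ dsRNA arrays were the lowest and its untreated arrays the most spread, and its change of 1.00 was 0.64 without untreated array 3, with the call lost without NELF dsRNA array 1 or 2 (adjusted p up to 0.0757). The muscle filament gene Mf, listed as a muscle marker, had 11.30, 11.40 and 11.52 after NELF dsRNA, 10.91, 10.77 and 10.90 after LacZ dsRNA and 10.47, 10.74 and 10.77 in untreated cells (change 0.75, adjusted p = 2.98e-05, second probe set 0.60). It was the only one of 3 tested muscle markers to pass. The summed linear intensity of those 3 ran from 2556 to 2944 on the NELF dsRNA arrays, from 1756 to 1950 on the LacZ dsRNA arrays and from 1456 to 1756 on the untreated arrays, and Act88F and sls had group means below the limit in both groups. The part of muscle-type expression in the Act79B result was not tested. For cib, a thymosin-beta protein that binds actin, the probe sets disagreed: the brighter rose by 0.50 and the dimmer fell by 1.31 on the log2 scale, and both passed. The call of the brighter one was lost without NELF dsRNA array 3 or untreated array 1 (adjusted p = 0.0824 and 0.0997), and the mean over both changed by -0.40. Fim rose by 0.38, with a LacZ dsRNA change of 0.34 that did not pass (adjusted p = 0.19), and the dsRNA groups differed by 0.05. The other fall was cpb, with a change of -0.25 and a LacZ dsRNA change of -0.14. The calls of Fim and cpb were lost in 4 and in 3 of the 9 fits that left out 1 array (adjusted p up to 0.0621 and 0.0755).

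Genes of detoxification enzymes passed in both directions, with mostly rises among the glutathione S-transferases that passed and mostly falls among the cytochromes P450 that passed. Of 29 glutathione S-transferase genes 6 rose and 3 fell, against 2.76% and 4.27% of all genes, and without the variance trend 5 were higher and 1 lower. GstD1, one of the brightest genes measured, had 12.09, 12.12 and 12.12 after NELF dsRNA, 11.24, 11.21 and 11.15 after LacZ dsRNA and 11.08, 11.20 and 11.08 in untreated cells, a 1.99-fold rise (SE 0.06 on the log2 scale, adjusted p = 3.42e-08). GstE6 had 12.31, 12.31 and 12.40 after NELF dsRNA, 11.83, 11.77 and 11.72 after LacZ dsRNA and 11.64, 11.76 and 11.71 in untreated cells (change 0.63, adjusted p = 3.7e-06). GstD5 had 7.75, 8.05 and 7.76 after NELF dsRNA, 6.57, 6.43 and 6.30 after LacZ dsRNA and 6.03, 6.46 and 5.99 in untreated cells, a 3.24-fold rise. In these 3 genes the 3 NELF dsRNA arrays lay above all others and the other 2 groups lay close together. GstE11, GstT1 and GstE12 rose by 0.60, 0.51 and 0.44 on the log2 scale. GstO3 had 8.39, 8.36 and 8.82 after NELF dsRNA, 9.56, 9.34 and 9.38 after LacZ dsRNA and 9.72, 9.72 and 9.70 in untreated cells (change -1.19, adjusted p = 3.7e-06), GstE2 fell by 1.37 and GstE13 by 0.31 on the log2 scale. The call of GstE13 was lost in 7 of the 9 fits that left out 1 array (adjusted p up to 0.169).

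Of 51 cytochrome P450 genes, which oxidize toxins and hormones, 8 fell and 2 rose, against 4.27% and 2.76% of all genes. Without the variance trend 6 were lower and 0 higher. Cyp4d20 had 4.91, 5.15 and 4.38 after NELF dsRNA, 6.61, 6.83 and 6.75 after LacZ dsRNA and 6.67, 6.96 and 6.83 in untreated cells, a 4.03-fold fall (adjusted p = 9.39e-06). Cyp12d1-d, of the mitochondrial class, whose near-identical copy Cyp12d1-p may share its probes, had 7.36, 7.17 and 7.27 after NELF dsRNA, 8.76, 8.73 and 8.76 after LacZ dsRNA and 8.87, 8.60 and 8.72 in untreated cells, a 2.76-fold fall (adjusted p = 8.72e-08). Cyp310a1 fell 3.40-fold and Cyp9c1 2.23-fold, and in these 4 genes the LacZ dsRNA changes lay between -0.28 and 0.02. Cyp12a5, Cyp12a4 and Cyp6a8 fell by 1.87, 1.69 and 1.49 on the log2 scale, with LacZ dsRNA values of -0.51, -0.56 and -0.59, and Cyp6d4 by 0.40. The call of Cyp12a4 was lost without untreated array 1 or 3 (adjusted p = 0.101 and 0.0608). The 2 rises were Cyp4e2 by 0.52 and Cyp6a20 by 0.34, lost in 3 and in 6 of the 9 fits that left out 1 array (adjusted p up to 0.0586 and 0.14).

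Of 19 genes of glutathione synthesis and antioxidant defence 5 rose and 1 fell, against 2.76% and 4.27% of all genes. Without the variance trend 2 were higher and 0 lower. Gclc, the catalytic subunit of the enzyme that makes the glutathione precursor, had 8.76, 8.86 and 8.88 after NELF dsRNA, 8.41, 8.39 and 8.52 after LacZ dsRNA and 8.12, 8.30 and 8.36 in untreated cells (change 0.57, LacZ dsRNA change 0.18, adjusted p = 0.000434). Prx6c rose as given above, the thioredoxin gene Trx2 by 0.26, the peroxidase gene Gtpx by 0.23 and ref(2)P, the fly homologue of the autophagy receptor p62, by 0.40. Calls of Trx2, Gtpx and ref(2)P were lost in 2, 4 and 6 of the 9 fits that left out 1 array (adjusted p up to 0.0587, 0.114 and 0.111). The metallothionein gene MtnA, which binds heavy metals, fell by 0.62 on the log2 scale. Of 13 heat shock and chaperone genes 1 rose, the small heat shock protein gene Hsp26, with 9.49, 9.52 and 9.24 after NELF dsRNA, 8.49, 8.33 and 8.46 after LacZ dsRNA and 8.63, 8.14 and 8.15 in untreated cells (change 1.11, adjusted p = 2.73e-05). These 13 were the matched ones of 26 listed. The Hsp70 genes, Hsp22, Hsp23 and Hsp83 were not matched and were not tested here.

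Several lysosomal enzyme genes fell. Of 25 lysosomal hydrolase and lumenal protein genes 8 fell and none rose, against 4.27% of all genes lower, with a median change of -0.21 and a LacZ dsRNA median of -0.13. Hexo2, a beta-hexosaminidase, had 9.84, 9.81 and 9.68 after NELF dsRNA, 10.77, 10.81 and 10.91 after LacZ dsRNA and 10.97, 10.95 and 10.98 in untreated cells (change -1.19, SE 0.06, adjusted p = 1.93e-08). Sgsh, the sulfamidase that degrades heparan sulfate, had 7.78, 7.72 and 7.66 after NELF dsRNA, 8.97, 9.08 and 8.95 after LacZ dsRNA and 9.15, 9.26 and 9.38 in untreated cells (change -1.54, adjusted p = 1.93e-08). In both the groups stood in the same order without overlap, with the LacZ dsRNA arrays close to the untreated ones. The enzymes Ids, an iduronate sulfatase, and Naglu, an N-acetylglucosaminidase, which act on glycosaminoglycans too, fell by 1.38 and 1.55 on the log2 scale, with LacZ dsRNA changes of -0.12 and -0.24. The cholesterol-binding protein gene Npc2b had 6.91, 7.18 and 6.75 after NELF dsRNA against 8.01, 8.39 and 7.95 in untreated cells and fell by 1.17. The protease gene CtsB, cathepsin B, fell by 0.56, the saposin gene Sap-r by 0.26, and CG6656 was at least 2.37-fold lower. The call of CG6656 was lost without untreated array 1 (adjusted p = 0.0561) and that of Sap-r in 5 of the 9 fits (adjusted p up to 0.118). None of 24 vacuolar ATPase genes, whose products acidify the same compartment, passed in limma (median change -0.10). An unadjusted limma p under 0.05 was found for 4 of them, against 1761 of all 9102 genes tested.

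Some transporter genes and single metabolic enzyme genes fell too. Of 43 transporter genes 6 fell and none rose, against 4.27% of all genes lower, and 4 were lower without the variance trend. Without the 2 arrays with the fewest measured probe sets 5 were lower and 2 higher. Beside Sfxn1-3, the amino acid carrier gene path, of the SLC36 type, fell by 1.53 and mnd, a light-chain amino acid transporter, by 1.02 on the log2 scale. The values of mnd were 8.03, 7.77 and 7.71 after NELF dsRNA, 8.80, 8.92 and 9.15 after LacZ dsRNA and 8.98, 8.82 and 8.77 in untreated cells. MFS10 fell by 1.24 (LacZ dsRNA change -0.42), the ecdysone importer gene Oatp74D by 0.45 and the zinc transporter gene ZnT41F by 0.44 (LacZ dsRNA change -0.36). The calls of Oatp74D and ZnT41F were lost in 5 and in 6 of the 9 fits that left out 1 array (adjusted p up to 0.138 and 0.145). Of 19 genes of gluconeogenesis, sugar and glycogen metabolism 1 fell and 1 rose, against 4.27% and 2.76% of all genes. Those that passed encode consecutive enzymes at the entry to gluconeogenesis. PCB, pyruvate carboxylase, had 6.75, 6.80 and 6.50 after NELF dsRNA, 8.83, 8.68 and 8.89 after LacZ dsRNA and 8.86, 8.71 and 8.67 in untreated cells, a 4.16-fold fall (adjusted p = 1.54e-08), while its dim second probe set had a change of -0.18 and the mean over both was -1.12. Pepck1, phosphoenolpyruvate carboxykinase, had 6.84, 6.80 and 6.46 after NELF dsRNA, 4.61, 5.12 and 5.81 after LacZ dsRNA and 5.499, 5.55 and 5.16 in untreated cells, a 2.45-fold rise (adjusted p = 0.0071). The call of Pepck1 was lost without the variance trend in limma (adjusted p = 0.0843). Of 18 glycolysis and hypoxia genes 1 fell, the prolyl hydroxylase gene Hph by 0.35 on the log2 scale, a call lost in 5 of the 9 fits that left out 1 array (adjusted p up to 0.193), and the mean over its 2 probe sets was 0.20.

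Of 41 lipid genes 3 rose and 3 fell, against 2.76% and 4.27% of all genes. SREBP, the transcription factor of lipid synthesis, had 11.27, 11.37 and 11.32 after NELF dsRNA, 11.13, 10.97 and 11.11 after LacZ dsRNA and 10.88, 10.82 and 10.97 in untreated cells (change 0.43, LacZ dsRNA change 0.18). All its NELF dsRNA arrays lay above the others, and the lowest LacZ dsRNA and the highest untreated array met. Agpat2, an acyltransferase of phospholipid synthesis, fell by 0.62, Fpps, farnesyl pyrophosphate synthase, by 0.62 and CPT2, an enzyme of fatty acid import into mitochondria, by 0.38 on the log2 scale. The geranylgeranyl pyrophosphate synthase gene qm rose by 0.61 and the thiolase gene yip2 by 0.35. The LacZ dsRNA changes of CPT2 and qm were -0.19 and 0.23. Calls of CPT2, qm and yip2 were lost in 6, 3 and 6 of the 9 fits that left out 1 array (adjusted p up to 0.139, 0.109 and 0.148).

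Some genes of the DNA damage response rose. Of 29 tested 6 were called higher and none lower, against 2.76% of all genes higher, with a median change of 0.28 and a LacZ dsRNA median of 0.04. Irbp18, a basic leucine zipper protein, had 10.05, 10.09 and 10.29 after NELF dsRNA, 9.41, 9.31 and 9.34 after LacZ dsRNA and 9.09, 9.43 and 9.15 in untreated cells (change 0.92, adjusted p = 9.39e-06). The 2 genes of the Ku heterodimer, which binds broken DNA ends, both rose: Irbp, the Ku70 gene, had 7.71, 7.60 and 7.68 after NELF dsRNA, 6.99, 7.06 and 7.04 after LacZ dsRNA and 7.15, 6.91 and 6.88 in untreated cells (change 0.69), and Ku80 rose by 0.75. The damage recognition gene Xpc rose by 0.54, mre11, which acts at double-strand breaks, by 0.34, and RPA2, a subunit of the single-strand binding protein, by 0.40. Calls of Ku80, Xpc, mre11 and RPA2 were lost in 4, 2, 3 and 4 of the 9 fits that left out 1 array (adjusted p up to 0.0834, 0.0563, 0.0799 and 0.103), and the number of list genes higher ran from 3 to 7 in those fits and was 2 without the variance trend. Of 29 DNA replication genes RPA2 rose and Ts, thymidylate synthase, fell by 0.28 on the log2 scale, a call lost in 6 of the 9 fits (adjusted p up to 0.154). Of 37 mitosis genes 2 rose and none fell, pim as given above and scra, which encodes anillin, by 0.40 (LacZ dsRNA change 0.10).

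Single genes of the transcription machinery passed, where 2.76% of all genes were higher and 4.27% lower. Of 22 pausing and elongation factor genes beside NELF 1 rose. This was Ssrp, whose product is part of the histone chaperone FACT, with 9.76, 9.77 and 9.80 after NELF dsRNA, 9.49, 9.47 and 9.58 after LacZ dsRNA and 9.27, 9.30 and 9.30 in untreated cells (change 0.49, LacZ dsRNA change 0.23, adjusted p = 0.000114). Its 3 groups did not overlap. Of 72 genes of RNA polymerase II, the general factors, Mediator and Integrator 2 rose, MED8 by 0.32 (LacZ dsRNA change 0.20) and TfIIA-L by 0.26, calls lost in 2 and in 4 of the 9 fits that left out 1 array (adjusted p up to 0.0575 and 0.0743). Of 33 chromatin genes the histone variant gene His2Av rose by 0.25 and ash2, of a histone methyltransferase complex, fell by 0.32 on the log2 scale. Their LacZ dsRNA changes were 0.06 and -0.195, and their calls were lost in 6 and in 5 of those fits (adjusted p up to 0.196 and 0.114). None of 19 genes of RNA interference, the machinery that both dsRNA treatments use, passed in limma in either dsRNA group against untreated cells. In NELF dsRNA 2 had an unadjusted limma p under 0.05, against 1761 of all 9102 genes tested. In LacZ dsRNA there were 3, against 992 of 8707. The NELF dsRNA median of the 19 genes was -0.01. These 19 were the matched ones of 23 listed. AGO1, AGO2, Dcr-1 and C3PO were not matched and were not tested here.

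Signalling genes were tested by pathway. Of 23 ecdysone response genes 4 fell and none rose, against 4.27% of all genes lower. The count was 1 without the variance trend and 2 without the 2 arrays with the fewest measured probe sets. ImpE3 had 4.21, 4.04 and 4.604 after NELF dsRNA, 6.37, 6.33 and 6.28 after LacZ dsRNA and 6.79, 6.53 and 6.59 in untreated cells, a 5.11-fold fall (adjusted p = 1.82e-06). The transcription factor gene br had 5.82, 4.56 and 5.70 after NELF dsRNA, 7.17, 6.71 and 6.94 after LacZ dsRNA and 6.63, 6.57 and 6.80 in untreated cells (change -1.31), but its 4 dimmer probe sets did not pass and the average of all 5 did not pass (adjusted p = 0.23). Oatp74D fell as given above, and the cyclin-dependent kinase gene Eip63E by 0.28 on the log2 scale, lost in 6 of the 9 fits that left out 1 array (adjusted p up to 0.125). Of 22 ligand genes 3 fell and none rose, and 2 were lower without the variance trend. The tumour necrosis factor gene egr had 8.38, 8.04 and 8.19 after NELF dsRNA, 8.92, 8.97 and 8.86 after LacZ dsRNA and 9.42, 9.13 and 9.11 in untreated cells (change -1.02, adjusted p = 9.4e-06, second probe set -1.91). The TGF-alpha-like gene grk fell by 0.59, and spz5, of the Spatzle family, was at least 2.46-fold lower.

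Of 16 Notch pathway genes 2 fell and none rose, against 4.27% of all genes lower, and without the variance trend 1 was lower and 1 higher. The gene numb, an inhibitor of Notch, had 7.05, 6.85 and 6.74 after NELF dsRNA, 7.86, 7.87 and 8.06 after LacZ dsRNA and 7.79, 7.96 and 7.88 in untreated cells, a 1.99-fold fall (adjusted p = 3.05e-05). The Notch target gene E(spl)m3-HLH fell by 0.59 (LacZ dsRNA change -0.20), a call lost in 3 of the 9 fits that left out 1 array (adjusted p up to 0.0842). The pathway genes N, Dl, Ser and Su(H) were not matched and were not tested here. Of 21 genes of JNK signalling and cell death the caspase gene Strica, with 7.23, 7.27 and 7.37 after NELF dsRNA against 8.29, 7.84 and 8.17 in untreated cells, fell by 0.81 and egr fell as given, while the adaptor gene Traf4 rose by 0.40, a call lost without the variance trend and in 5 of the 9 fits (adjusted p up to 0.102). No gene passed among 21 of EGFR, Ras and MAPK signalling, 8 of JAK/STAT and stress peptides and 34 homeotic and patterning regulators, of which 11 were detected in either group. Their counts at an unadjusted limma p under 0.05 were 6, 1 and 1, against 1761 of all 9102 genes tested. Among genes of these lists that were not matched and not tested here were Ras85D, Raf, rl, pnt, hop, Socs36E, upd3, Ubx and Abd-B.

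Few genes of growth and cell upkeep passed, beside 2.76% of all genes higher and 4.27% lower. None passed among 32 cytosolic ribosomal protein genes, 34 proteasome subunits or 26 genes of secretion and endoplasmic reticulum stress. An unadjusted limma p under 0.05 was found for 8, 5 and 4 of them, against 1761 of all 9102 genes tested. The ribosomal protein genes had a median change of -0.09 and a LacZ dsRNA median of -0.07. Of 69 mitochondrial ribosomal protein genes mRpL30 rose by 0.37 and mRpL9 fell by 0.35 on the log2 scale, with LacZ dsRNA changes of 0.20 and -0.18. Of 69 respiratory chain genes Cox17, a copper chaperone, rose by 0.34 and Cyt-c1L, a cytochrome c1 relative, by 1.19 (LacZ dsRNA change 0.73). Of 59 translation factor and tRNA synthetase genes, and of 30 ribosome biogenesis genes, 1 rose, and it is the same gene on both lists, eIF6 (change 0.36), which acts in the maturation of the large ribosomal subunit. The calls of mRpL9 and Cyt-c1L were lost in 3 and in 7 of the 9 fits that left out 1 array (adjusted p up to 0.0939 and 0.155). The plot of the lists sets these beside the groups above.

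**Figure D5:**
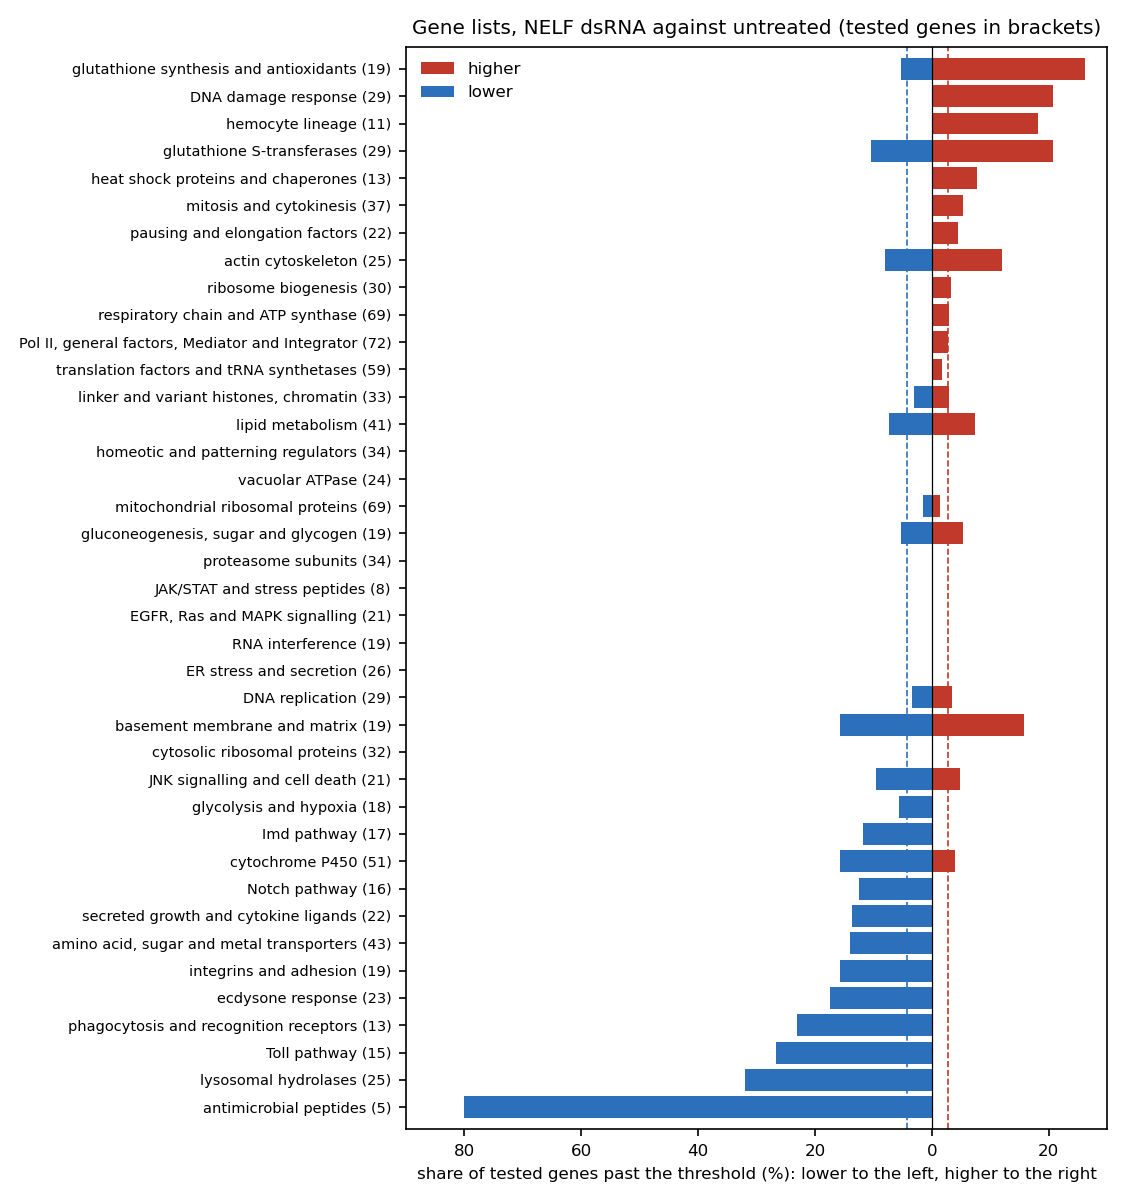
Share of the tested genes of each list, in percent, that passed in NELF dsRNA against untreated cells and were higher (red, to the right) or lower (blue, to the left), with the number of tested genes in brackets and lists ordered by the difference of the shares. Dashed lines mark the shares over all genes, 2.76% higher and 4.27% lower. Antimicrobial peptides, lysosomal hydrolases and the Toll pathway lie at the lower end with 4 of 5, 8 of 25 and 4 of 15 genes lower, and antioxidant and DNA damage genes at the upper end with 5 of 19 and 6 of 29 genes higher.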

How the data were processed

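Messenger RNA was measured on Affymetrix Drosophila Genome 2.0 arrays, which read the 3′ part of transcripts, with 3 samples in each of the NELF dsRNA, LacZ dsRNA and untreated groups. Per the labels' protocols, 1 µg of total RNA was labelled and 10 µg of cRNA hybridized for 16 h. Per the labels and the series' design text, arrays were scanned with GeneChip Operating Software 1.2.0.037 and the data imported into Rosetta Resolver 6.0. The values deposited by the authors are read as log2 intensities because they run from -16.35 to 13.63, and the sources used here do not give how probes were summarized, how arrays were normalized or what an empty cell means. Of the cells 21.2% were empty, and they were left out, not imputed. No scan dates or slides were used here, and the number of arrays limits the precision.

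Of 17899 probe sets beside 95 controls, 13086 had 1 gene in the platform annotation, 389 several and 4424 none. Symbols were updated through RefSeq for 12988. Group means were fitted on all 9 arrays with limma 3.58.1 (R 4.3.3, eBayes with a variance trend) for probe sets with at least 2 values in each group compared, on the deposited values with no further scaling, and p-values were adjusted over all tested probe sets. A gene is represented by its brightest tested probe set. The fit was tested on simulated data. Correlations between arrays, over the probe sets measured on all 9, ran from 0.943 to 0.971. Those within groups overlapped those between groups, so they cannot tell whether any arrays shared a library.

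Named genes are the 15 largest rises and 15 largest falls among genes without overlap between the 6 arrays and with a group mean above 5.50, the median of tested probe sets, and up to 4 members per list with the smallest adjusted p. Genes that also passed in LacZ dsRNA, probe sets empty in 1 group, the NELF complex, reference genes and markers are named as well. All further members were named after their values were seen. The members and lists were chosen with earlier results of these data known. Listed genes that could not be matched to a gene of the annotation were not tested. HisT was taken off the chromatin list because it had been entered by likeness of its symbol, and GlyS off the lysosomal list. The replicate numbers of the titles did not pair the samples. Alternatives changed the variance trend, low values, the filter, empty cells, normalization, the arrays fitted, the block, the arrays kept and the handling of several probe sets.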

Additional observations from a re-analysis of the deposited data

How the results depend on the processing

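Without the variance trend, 136 probe sets were higher and 220 lower after NELF dsRNA than in untreated cells, 1 higher and 0 lower after LacZ dsRNA than in untreated cells (of 1355 at an unadjusted limma p under 0.05 with the trend), and 75 higher and 153 lower after NELF dsRNA than after LacZ dsRNA. When each array was left out in turn, NELF dsRNA against untreated cells gave 223 to 431 probe sets higher and 311 to 565 lower, LacZ dsRNA against untreated cells 2 to 14 higher and 0 to 4 lower, and NELF dsRNA against LacZ dsRNA 158 (without NELF dsRNA array 2) to 314 higher and 254 to 383 lower. With only the 6 arrays compared, 0 probe sets were lower after LacZ dsRNA. Without the 2 arrays with the fewest measured probe sets, a choice made after seeing the data, LacZ dsRNA gave 15 higher and 7 lower, and NELF dsRNA against untreated cells 342 and 456. When a gene's probe sets were averaged the sign turned for Tl (0.26, adjusted p = 0.755), cib (-0.40, adjusted p = 0.0362) and Hph (0.20, adjusted p = 0.623), whose probe sets differ in direction. Same-numbered NELF dsRNA and untreated samples did not deviate together (correlations of 0.013, 0.019 and -0.01). With the replicate block, NELF dsRNA against untreated cells gave 306 probe sets higher and 418 lower, LacZ dsRNA 8 and 1, and NELF dsRNA against LacZ dsRNA 211 and 320. Under the other alternatives the counts for NELF dsRNA against untreated cells ran from 312 to 423 higher and from 424 to 537 lower. Of 111 named genes that passed, 64 passed in the same direction under every alternative run. Of the other 47, 45 were lost without the variance trend, and bbg and Tl did not pass when their probe sets were averaged. Without the variance trend no gene passed among the DNA replication, mitosis, mitochondrial ribosomal protein, translation factor, ribosome biogenesis, respiratory chain, chromatin, glycolysis and Pol II machinery lists. The causes of these shifts were not tested. A change in a gene near the detection limit could not be measured with precision, with a median SE of 0.94 among genes at or below it.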

Other observations

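The genes below were picked after their values had been seen. The smallest adjusted p of the comparison belonged to QC, a glutaminyl cyclase, with 8.78, 8.85 and 8.96 after NELF dsRNA, 10.45, 10.42 and 10.38 after LacZ dsRNA and 10.58, 10.46 and 10.52 in untreated cells (change -1.66, SE 0.07, limma adjusted p = 1.51e-09). Other bright falls were those of fat-spondin, which fell by 1.51, the serpin gene Spn42Dc by 1.63, the neprilysin-like gene Nepl19 by 1.73 and edin, an immune-induced gene, by 1.02 on the log2 scale. The glucuronosyltransferase genes Ugt35A1 and Ugt317A1 fell by 2.11 and 1.76. Spn88Ea, another serpin gene, had 11.39, 11.37 and 11.46 after NELF dsRNA, 10.27, 10.61 and 10.70 after LacZ dsRNA and 10.71, 10.61 and 10.77 in untreated cells (change 0.71, limma adjusted p = 0.000109), and scaf, a serine protease homologue, rose by 0.94. Among other rises were AMPdeam, an AMP deaminase, by 1.22, the dehydrogenase gene Rdh1 by 0.85 and the mitochondrial carrier gene Ant2 by 0.96.

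Some genes that changed are neighbours in the RefSeq order of genes. Of 6314 adjacent pairs tested, both genes passed in 51, where 2.76% of all genes were higher and 4.27% lower. In 9 of these pairs both were higher, in 25 both were lower and in 17 the directions were opposite. Whether neighbours passed together more often than other genes was not tested. The genes named here come from pairs with the same direction. The 4 genes CG11400, Gbp1, Gbp2 and CG43103 were all lower after NELF dsRNA, with changes of -1.64, -0.95, -0.97 and -1.49, and Gbp1 and Gbp2 encode growth-blocking peptides, cytokines of the insect immune system. CG11400 had 7.91, 7.77 and 8.12 after NELF dsRNA, 9.11, 9.001 and 9.11 after LacZ dsRNA and 9.77, 9.34 and 9.60 in untreated cells. Idgf2 and Idgf3, chitinase-like growth factor genes, changed by -0.84 and -0.98, and Arc1 and Arc2, which encode capsid-forming proteins, by 0.39 and 0.78. Related neighbours can share probe sequence, so values of such a pair may not be separate measurements.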
